A study of Bos taurus with 6 samples.

Results

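E-selectin (SELE, Entrez gene 281484), P-selectin (SELP, 281486), VCAM1 (282118), ICAM1 (281839) and ICAM2 are receptors by which endothelium catches and holds leukocytes. They were taken as every probe set that the array annotation assigns to one of these symbols. Of the 5 genes 4 had a probe set, 1 each, among 9162 named genes and 24016 probe sets, and ICAM2 was not analysed here. The set was chosen by the TGFB1 minus basal difference of SELE in these same arrays, with the other receptors added for comparison, so the differences of its members between groups are given as a description without p-values.

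The arrays came from primary bovine aortic endothelial cells that were freed from the vessel with collagenase and grown in RPMI medium. The TGFB1 group (3 arrays) received 5 ng/ml TGF-beta 1 for 24 hours, and the basal group (3 arrays) was left untreated. The labels name no inflammatory cytokine in either group. They describe triplicates from 3 cultures but name no animal and tie no treated array to a basal one, so the spread between arrays may be technical. Values are RMA expression on a log2 scale, on which a difference of 1 is a 2-fold difference. They carry no detection call, and the level of one probe set cannot be set against that of another. In such bulk samples a change in the number of expressing cells and a change in RNA per cell cannot be told apart.

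Leukocytes leave the blood in steps. The selectins SELE and SELP bind sugar ligands on passing leukocytes and let them roll along the vessel wall. SELP is stored ready-made in endothelial granules and moves to the surface within minutes of a stimulus, whereas SELE is made anew after its gene is switched on, classically by tumour necrosis factor or interleukin-1 through the transcription factor NF-kB. ICAM1 and VCAM1, which are members of the immunoglobulin superfamily, then hold the cell firmly through its integrins, and proteins of the endothelial junction such as PECAM1, CD99 and the JAM family guide its passage.

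The arrays bore the marks of endothelium. PECAM1 lay between 11.73 and 12.43 log2 and the cadherin CDH5 between 11.37 and 12.34 log2 over the 6 arrays, whereas VWF, at 5.99 to 6.33, stayed near the array medians of 5.88 to 5.92 and the VEGF receptor KDR, at 4.39 to 5.50, stayed below them. The arrays also divided in a way that crossed the treatment groups. On the first principal component of all other probe sets, with 63.4% of the variance, the scores were -10.3, 39.4 and 41.3 in TGFB1 arrays 1, 2 and 3, against -67.7, -38.8 and 36.1 in basal arrays 1, 2 and 3. TGFB1 1, basal 1 and basal 2 thus stood on the negative side, and TGFB1 2, TGFB1 3 and basal 3 on the positive side. The treated array had the higher score in 8 of the 9 pairs of a treated with a basal array, so that division and treatment were not fully separate. The labels give no reason for this division. Differences of the receptors and the contrast of SELE with them are given over all arrays and within its sides. Differences of other genes are not split by it.

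SELE was the adhesion receptor with the largest difference. It had 9.02, 8.53 and 8.25 log2 in TGFB1 arrays 1, 2 and 3, against 5.21, 5.34 and 5.56 log2 in basal arrays 1, 2 and 3. All treated arrays lay above all basal arrays, and the lowest treated value exceeded the highest basal value by 2.69 log2. The group means were 8.60 ± 0.39 log2 in TGFB1 arrays and 5.37 ± 0.18 log2 in basal arrays (SD, n = 3 each), a 9.40-fold difference with a 95% interval of 6.49 to 13.6. The gap between the groups was thus wider than the range within either group, which was 0.77 log2 among TGFB1 arrays and 0.35 log2 among basal arrays. The treated values stood at the 81.9 to 89.1 percentile of the probe sets of their array, and the basal values at the 37.3 to 44.0 percentile. Whether the basal signal was above background cannot be read from RMA values, and the size of the fold depends on it.

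**Figure D1:**
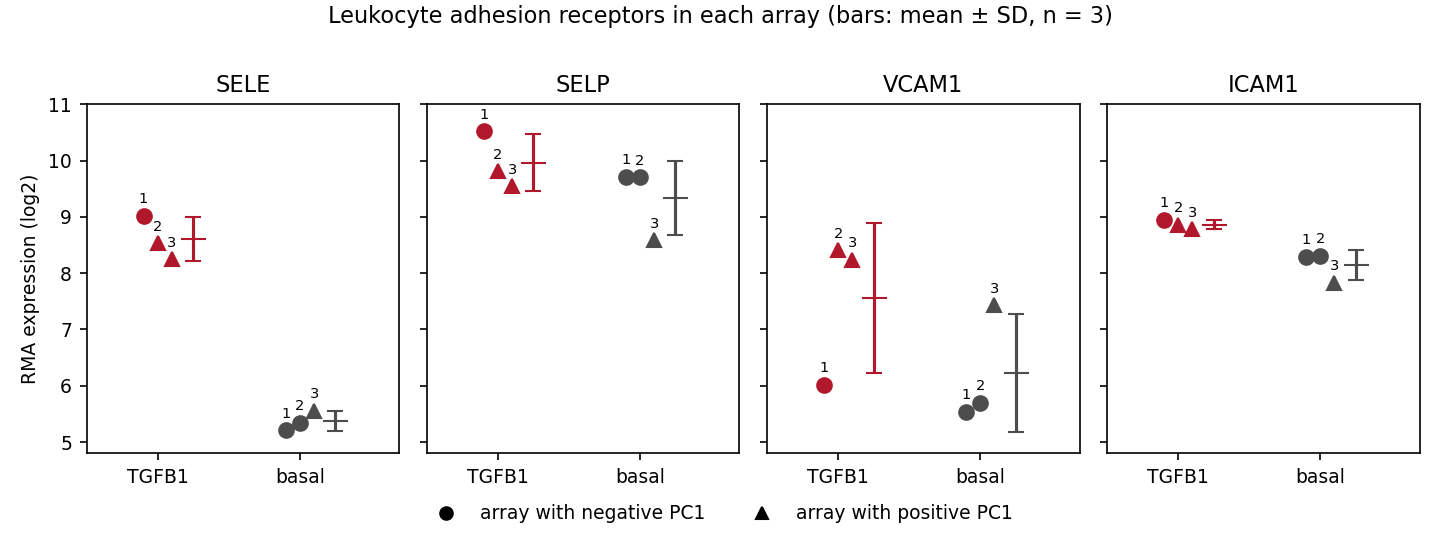
RMA expression (log2) of SELE, SELP, VCAM1 and ICAM1 in each of the 3 TGFB1 and 3 basal arrays, numbered by replicate, with the mean ± SD beside the points and the symbol showing the side of the first principal component. SELE and ICAM1 separate the groups, by 2.69 and 0.47 log2, whereas SELP and VCAM1 overlap, and every VCAM1 value of an array on the positive side lies above every one on the negative side.

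The SELE difference of 3.23 log2 ranked 5 among the 9162 genes. Leaving out any 1 array kept it between 3.02 and 3.41 log2. The limma fit over all genes, at an adjusted p of 0.05, called 1.72% of genes in either direction and 0.557% higher, and the fit over all 24016 probe sets called 0.658% of them. No p-value is given for the receptors themselves, since SELE was chosen on this difference. For the same reason nothing is read from the counts of calls among them given under the alternatives.

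SELP, the stored selectin, was bright in both groups. It had 10.52, 9.81 and 9.54 log2 in TGFB1 arrays 1, 2 and 3, against 9.72, 9.70 and 8.59 log2 in basal arrays 1, 2 and 3. The groups overlapped, since TGFB1 3 lay below basal 1 and basal 2, and basal 3 was the lowest of all arrays. In 7 of the 9 pairs of a treated with a basal array the treated one was higher. The means were 9.96 ± 0.51 log2 in TGFB1 arrays and 9.34 ± 0.65 log2 in basal arrays (SD, n = 3 each), a difference of 0.62 log2 with a 95% interval of -0.34 to 1.58. Without basal 3 the difference was 0.25 log2 and without TGFB1 1 it was 0.34 log2.

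VCAM1, which binds a beta1 integrin of lymphocytes and monocytes, spread most within the groups. It had 6.02, 8.40 and 8.24 log2 in TGFB1 arrays 1, 2 and 3, against 5.54, 5.70 and 7.43 log2 in basal arrays 1, 2 and 3. The treated array 1 stood with basal 1 and basal 2 near the array medians, while basal 3 stood closer to the other treated arrays than to its own group. The means were 7.55 ± 1.33 log2 in TGFB1 arrays and 6.22 ± 1.05 log2 in basal arrays (SD, n = 3 each). The difference of 1.33 log2 had a 95% interval of -0.61 to 3.27, wide enough to hold no difference and also one as large as that of SELE. It was 0.91 log2 without TGFB1 2 and 2.10 log2 without TGFB1 1.

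ICAM1, the ligand of the leukocyte integrins with the beta2 chain, varied least among the treated arrays. It had 8.95, 8.86 and 8.78 log2 in TGFB1 arrays 1, 2 and 3, against 8.29, 8.31 and 7.83 log2 in basal arrays 1, 2 and 3. The groups did not overlap and the treated arrays lay within 0.17 log2 of each other, while basal 3 lay below the other basal arrays. The means were 8.86 ± 0.09 log2 in TGFB1 arrays and 8.14 ± 0.27 log2 in basal arrays (SD, n = 3 each), a 1.65-fold difference with a 95% interval of 1.26 to 2.16. ICAM1 and SELE were the 2 of 4 receptors whose treated arrays all lay above the basal ones, which held for 8.19% of all genes. Nothing is read from that count, because SELE was chosen on its difference between the groups. Without basal 3 the difference of ICAM1 was 0.56 log2.

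**Figure D2:**
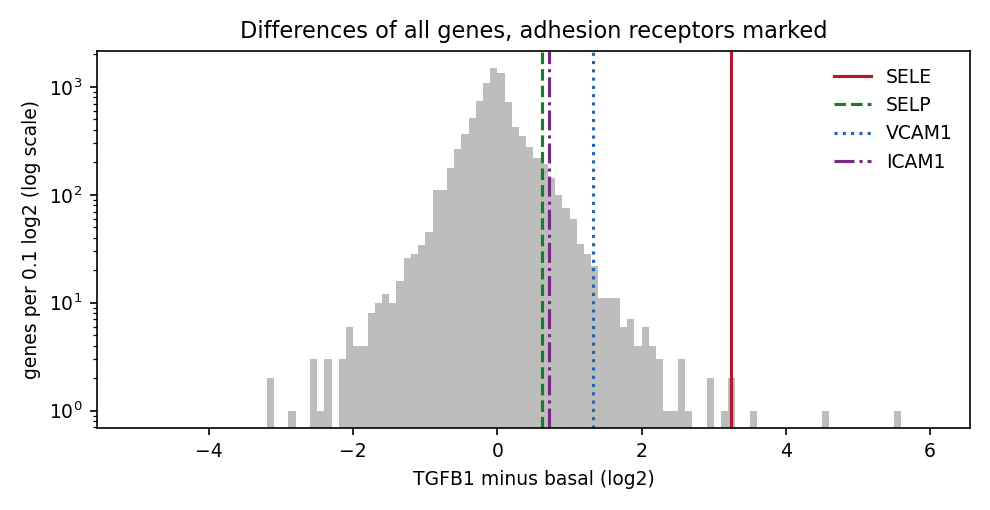
Number of genes in each step of 0.1 log2 of the difference TGFB1 minus basal, on a log axis, for all 9162 genes, with lines at the 4 adhesion receptors. SELE, at 3.23 log2, stands at the edge of the distribution, and SELP, ICAM1 and VCAM1, at 0.62, 0.72 and 1.33 log2, on its upper flank.

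The contrast of SELE with the other receptors was taken within each array, as its log2 value minus the mean log2 value of SELP, VCAM1 and ICAM1. Only the change of this quantity between arrays has a meaning. It was 0.53, -0.49 and -0.60 log2 in TGFB1 arrays 1, 2 and 3, against -2.64, -2.56 and -2.39 log2 in basal arrays 1, 2 and 3. The treated arrays lay above the basal ones by at least 1.79 log2. The means were -0.19 ± 0.62 log2 in TGFB1 arrays and -2.53 ± 0.13 log2 in basal arrays (SD, n = 3 each), so that SELE differed 5.07-fold more between the groups than the mean of the other receptors. Against single receptors the excess was 2.61 log2 over SELP, 2.51 log2 over ICAM1 and 1.90 log2 over VCAM1. The excess over VCAM1 was the least even, since SELE minus VCAM1 was 3.01 log2 in TGFB1 1 but 0.13 and 0.01 log2 in TGFB1 2 and 3, against -0.33, -0.35 and -1.88 log2 in basal 1, 2 and 3.

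Within both groups VCAM1 and SELP differed between the sides of the first principal component, in opposite directions. In the TGFB1 group the mean VCAM1 value of arrays 2 and 3 exceeded that of array 1 by 2.30 log2, and in the basal group array 3 exceeded the mean of arrays 1 and 2 by 1.82 log2. Both steps were larger than the difference between the groups. SELP went the other way, with -0.85 log2 for the same step in the TGFB1 group and -1.12 log2 in the basal group. For ICAM1 the steps were -0.13 log2 in the TGFB1 group and -0.47 log2 in the basal group, and for SELE -0.63 log2 in the TGFB1 group and 0.28 log2 in the basal group. The step of SELE was thus small beside its difference between groups, whereas that of VCAM1 was not.

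Among arrays on the same side of the component, each of the 4 receptors was higher in treated arrays. On the negative side, TGFB1 1 against basal 1 and basal 2, the difference was 3.75 log2 for SELE, 0.81 for SELP, 0.65 for ICAM1 and 0.40 for VCAM1. On the positive side, TGFB1 2 and TGFB1 3 against basal 3, it was 2.83 log2 for SELE, 1.09 for SELP, 0.99 for ICAM1 and 0.89 for VCAM1. Of all genes 29.2% were higher in treated arrays on both sides. The contrast of SELE with the mean of the other receptors was 3.13 log2 on the negative side and 1.84 log2 on the positive side. A limma fit with the side as a block gave differences of 3.29 log2 for SELE (95% interval 2.77 to 3.82), 0.95 for SELP (0.65 to 1.25), 0.82 for ICAM1 (0.55 to 1.10) and 0.64 for VCAM1 (0.30 to 0.99). The block was chosen with earlier results of these arrays known, and its sides were set by a component computed from the same arrays. These intervals are therefore a description and no test. Without the block the intervals of SELP and VCAM1 held 0.

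**Figure D3:**
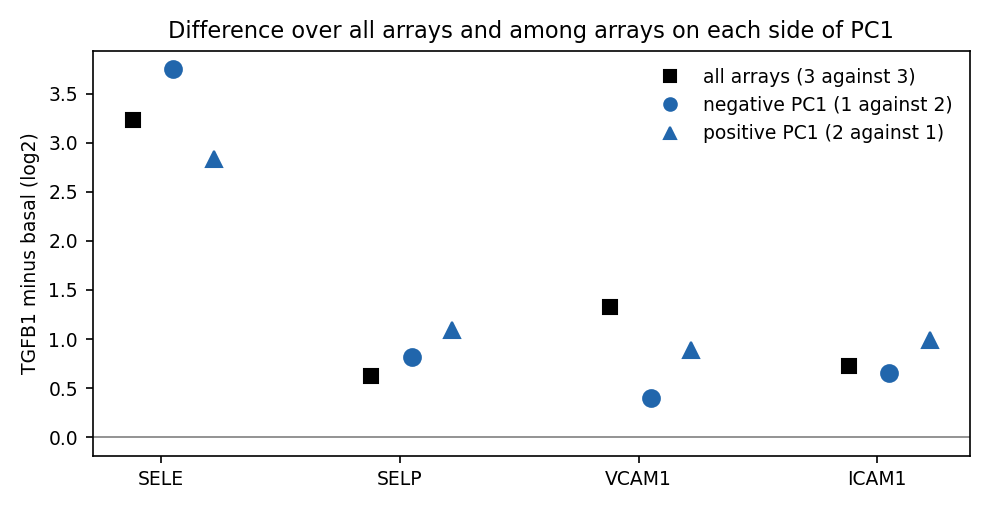
Difference TGFB1 minus basal (log2) of each receptor over all 6 arrays (squares, 3 against 3), among the arrays with a negative first principal component (circles, 1 against 2) and among those with a positive one (triangles, 2 against 1). All points lie above 0, and the points of VCAM1 within the sides, at 0.40 and 0.89 log2, lie below its value over all arrays, 1.33 log2.

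The genes most like each receptor were ranked by Pearson correlation over the 6 arrays, among 1688 genes with an SD of at least 0.5 log2. These correlations describe a shared order of the same 6 arrays, which hold the treatment and the array division at once. For SELE the closest were FHL2, a LIM-domain protein (r = 0.996), P2RY1, a receptor for ADP (0.995), CSRP2, another LIM-domain protein (0.994), BPNT2, a phosphatase of the Golgi (0.994), and the chemokine CXCL12 (0.990). All 5 were past the limma threshold, which a choice by likeness to SELE favours, with differences from 0.99 log2 for BPNT2 to 3.11 log2 for CXCL12. CXCL12, which draws leukocytes through its receptor CXCR4, had 11.32, 10.94 and 10.82 log2 in TGFB1 arrays 1, 2 and 3, against 7.71, 7.55 and 8.48 log2 in basal arrays 1, 2 and 3.

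For the other receptors the closest genes were other ones, with the receptors themselves left out of the ranking. SELE itself correlated over the 6 arrays at r = 0.89 with ICAM1, 0.57 with SELP and 0.50 with VCAM1. For VCAM1 the closest were TFPI2, a protease inhibitor (r = 0.997), BLZF1, a Golgi protein (0.993), and IFI44, an interferon-induced gene (0.993). IFI44 had 6.07, 8.08 and 8.21 log2 in TGFB1 arrays 1, 2 and 3, against 5.59, 5.99 and 7.52 log2 in basal arrays 1, 2 and 3, the same order by side of the component as VCAM1. For SELP they were BHLHE40, a transcriptional repressor (0.991), ROBO4, an endothelial receptor (0.987), and SYNPO, an actin-associated protein (0.974). For ICAM1 they were ACO1, an iron-sensing aconitase (0.995), SRM, which makes spermidine (0.990), and RND1, a small GTPase (0.987). None of these 9 genes passed the limma threshold, where 1.72% of all genes did. The 3 most like ICAM1 had an unadjusted p under 0.05, where 17.4% of all genes had one. A choice by likeness to these receptors bears on both counts.

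SELE and SELP lie close together in the RefSeq gene table for assembly ARS-UCD2.0. Of the 31 other protein-coding genes within 5 places of a measured receptor on that assembly, 17 were measured. None of these passed the limma threshold, against 1.72% of all genes. An unadjusted p under 0.05 was found for 1 (DNMT1, near ICAM1), against 17.4% of all genes. Their differences ran from -0.64 to 0.78 log2. The coagulation factor gene F5, next to SELP, differed by 0.13 log2, and METTL18, on the far side of SELE, by 0.71 log2.

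Among the other genes of leukocyte adhesion and transmigration the only calls were falls. Of 19 measured genes of the list 4 fell and none rose, where 1.17% of all genes were called lower. At an unadjusted p under 0.05 there were 8 lower and 1 higher, where 17.4% of all genes had one. The JAM family members JAM2 and F11R, which sit at endothelial junctions and bind leukocyte integrins, fell, as did CD99, a junction protein of the last step of transmigration, and AOC3, the amine oxidase known as vascular adhesion protein. JAM2 had 8.36, 7.92 and 8.50 log2 in TGFB1 arrays 1, 2 and 3, against 10.54, 10.16 and 9.82 log2 in basal arrays 1, 2 and 3. It fell 3.78-fold (limma adjusted p = 0.0311). AOC3 had 7.03, 7.48 and 7.75 log2 in the same TGFB1 arrays, against 10.19, 10.05 and 9.06 log2 in the basal arrays, and fell 5.09-fold (limma adjusted p = 0.0419). The groups did not overlap for either gene, and basal 3 lay nearest to the treated arrays. Treated arrays lay wholly below basal ones in 9 of the 19 genes, which held for 15.1% of all genes.

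F11R had 10.49, 10.66 and 10.77 log2 in TGFB1 arrays 1, 2 and 3, against 11.49, 11.42 and 11.61 log2 in basal arrays 1, 2 and 3, a 1.82-fold fall (limma adjusted p = 0.0371). CD99 had 10.29, 10.22 and 10.25 log2 in the TGFB1 arrays, against 11.02, 10.93 and 10.83 log2 in the basal arrays, a 1.60-fold fall (limma adjusted p = 0.0441). The other probe sets of these 4 genes, 1 each for JAM2, F11R and CD99 and 2 for AOC3, all had the same sign. The list median was -0.20 log2, beside -0.03 over all genes. JAM3 stood at -0.87 and PECAM1 at -0.52 log2, and CD44, which carries selectin ligands and binds hyaluronan, stood at 0.57 log2, none past the threshold. The call of CD99 ended under limma-trend (adjusted p = 0.0553), among probe sets above the median (0.0520) and with the probe set of highest interquartile range (0.335), and that of F11R with the last (0.0761). Among the alternatives adjusted p spanned 0.0137 to 0.335 for CD99 and from 0.00713 to 0.193 for F11R. Without basal 1, basal 2, TGFB1 1, TGFB1 2 or TGFB1 3 none of the 19 was called. Without basal 3 there were 9, but that fit called 1538 of all 9162 genes.

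**Figure D4:**
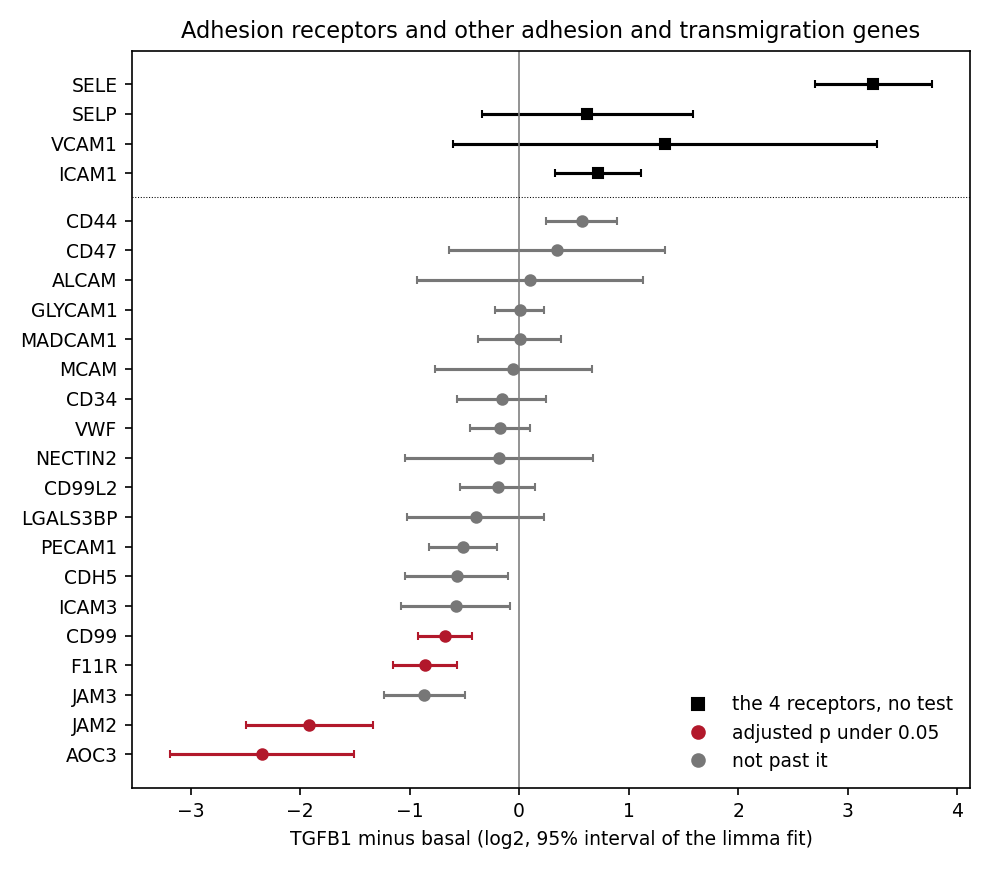
Difference TGFB1 minus basal (log2) with the 95% interval of the limma fit for the 4 receptors (black squares above the dotted line, given without a test) and the 19 measured genes of the adhesion and transmigration list (circles below it, in red where the adjusted p was under 0.05). SELE stands farthest to the right, at 3.23 log2, and AOC3, JAM2, F11R and CD99, from -2.35 to -0.68 log2, are the red points.

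Genes that make or carry the leukocyte ligands showed 1 call among 17 measured, where 1.72% of all genes were called. At an unadjusted p under 0.05 there were 2 higher and 1 lower, where 17.4% of all genes had one. TPST2, which adds sulphate to tyrosines such as those of the P-selectin ligand SELPLG, fell 2.14-fold (limma adjusted p = 0.0395). It had 7.61, 8.02 and 8.04 log2 in TGFB1 arrays 1, 2 and 3, against 9.13, 8.86 and 8.98 log2 in basal arrays 1, 2 and 3, and the groups did not overlap. Treated arrays lay wholly above basal ones in 1 of the 17 genes and wholly below them in 2. Over all genes this held for 8.19% and 15.1%. CHST2, which adds sulphate to selectin ligand sugars, stood at 1.26 log2 (limma adjusted p = 0.103), the integrin chain ITGB1 at 0.39 and the sialyltransferase ST3GAL3 at -0.28. The list median was -0.10 log2. The TPST2 call was lost under limma-trend (adjusted p = 0.0553, from 0.00947 to 0.192 over its alternatives) and when any 1 array other than basal 3 was left out, with differences between -0.96 and -1.17 log2 over all 6 such fits.

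Receptors through which cytokines and microbial products switch on SELE, VCAM1 and ICAM1 showed no call by limma among 16 measured. Over all genes 1.72% were called. At an unadjusted p under 0.05 there were 5, of which 4 were higher and 1 lower, where 17.4% of all genes had one. IL1R1, the signalling receptor for interleukin-1, had 9.70, 8.88 and 8.91 log2 in TGFB1 arrays 1, 2 and 3, against 7.79, 7.84 and 7.74 log2 in basal arrays 1, 2 and 3, and stood at 1.37 log2 (limma adjusted p = 0.0553). TLR2, a receptor for bacterial lipoproteins, had 7.33, 6.05 and 6.25 log2 in the TGFB1 arrays, against 4.77, 4.50 and 4.29 log2 in the basal arrays, at 2.02 log2 (limma adjusted p = 0.0557). For both genes all treated arrays lay above all basal arrays, and TGFB1 1 was the highest, as it was for SELE. Treated arrays lay wholly above basal ones in 5 of the 16 genes, which held for 8.19% of all genes. TNFRSF21 stood at 0.58 and CD40 at 0.49 log2. The lower one was TNFRSF1A, at -0.72 log2 with overlapping groups. The list median was 0.03 log2. Without basal 3 there were 4 calls in this list, but that fit called 1538 of all 9162 genes.

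The NF-kB pathway itself showed no limma call among 22 measured genes, where 1.72% of all genes were called. At an unadjusted p under 0.05 there were 4, where 17.4% of all genes had one, and the list median was -0.06 log2. Those with the smallest p were NFKBIZ, an inducible nuclear partner of NF-kB, at 2.27 log2, BIRC3, an inhibitor of apoptosis, at 2.19, NFKBIA, the inhibitor that NF-kB itself induces, at 0.93, and the adaptor TRAF6 at -0.39. NFKBIA had 9.70, 8.95 and 8.85 log2 in TGFB1 arrays 1, 2 and 3, against 8.58, 8.39 and 7.75 log2 in basal arrays 1, 2 and 3. Its groups did not overlap, and basal 3 was the lowest array. Treated arrays lay wholly above basal ones in 3 of the 22 genes and wholly below them in 2. Over all genes this held for 8.19% and 15.1%. Limma adjusted p for these 4 genes ran from 0.0683 to 0.233. Without basal 3 there were 4 calls in this list, but that fit called 1538 of all 9162 genes.

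Of 21 other inflammatory genes that NF-kB drives in endothelium 1 was called, where 1.72% of all genes were. At an unadjusted p under 0.05 there were 4 higher and 1 lower, where 17.4% of all genes had one. Treated arrays lay wholly above basal ones in 6 of the 21, which held for 8.19% of all genes. These were CXCL8, CCL5, IL1A, IL1B, F3 and PTGS2. IL1B and F3 differed by only 0.08 and 0.16 log2. PTGS2 had 7.98 log2 in TGFB1 1 but 4.67 and 4.76 log2 in TGFB1 2 and 3, against 4.52, 4.52 and 4.24 log2 in basal arrays 1, 2 and 3. Neither of the 2 other probe sets of PTGS2 had the same sign, whereas the 1 other probe set each of IL1A and IL1B did. CSF2, a growth factor of myeloid cells, fell 3.78-fold (limma adjusted p = 0.0371), with 5.35, 5.03 and 5.42 log2 in TGFB1 arrays 1, 2 and 3, against 7.02, 6.78 and 7.75 log2 in basal arrays 1, 2 and 3. IL1A, an interleukin-1, stood at 1.10 log2 (limma adjusted p = 0.0666). The chemokine CXCL8 had 10.79, 9.36 and 9.40 log2 in the TGFB1 arrays, against 5.04, 6.26 and 8.37 log2 in the basal arrays, so that basal 3 stood closer to TGFB1 2 and TGFB1 3 than to basal 1 and basal 2. Its difference was 3.30 log2 (limma adjusted p = 0.129). The chemokine CCL2, which draws monocytes, had the largest difference of the list but overlapping groups, with 9.81, 12.40 and 12.37 log2 in the TGFB1 arrays, against 5.03, 5.38 and 10.58 log2 in the basal arrays. Its difference was 4.53 log2 (limma adjusted p = 0.224), and basal 3 lay above TGFB1 1. The chemokine CCL5 stood at 1.60 log2 (limma adjusted p = 0.141). The list median was 0.10 log2. The CSF2 call was lost when any 1 array other than basal 3 was left out. Its differences lay between -1.64 and -2.12 log2 over all 6 fits that left out 1 array. Without basal 3 there were 4 calls in this list, but that fit called 1538 of all 9162 genes.

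**Figure D5:**
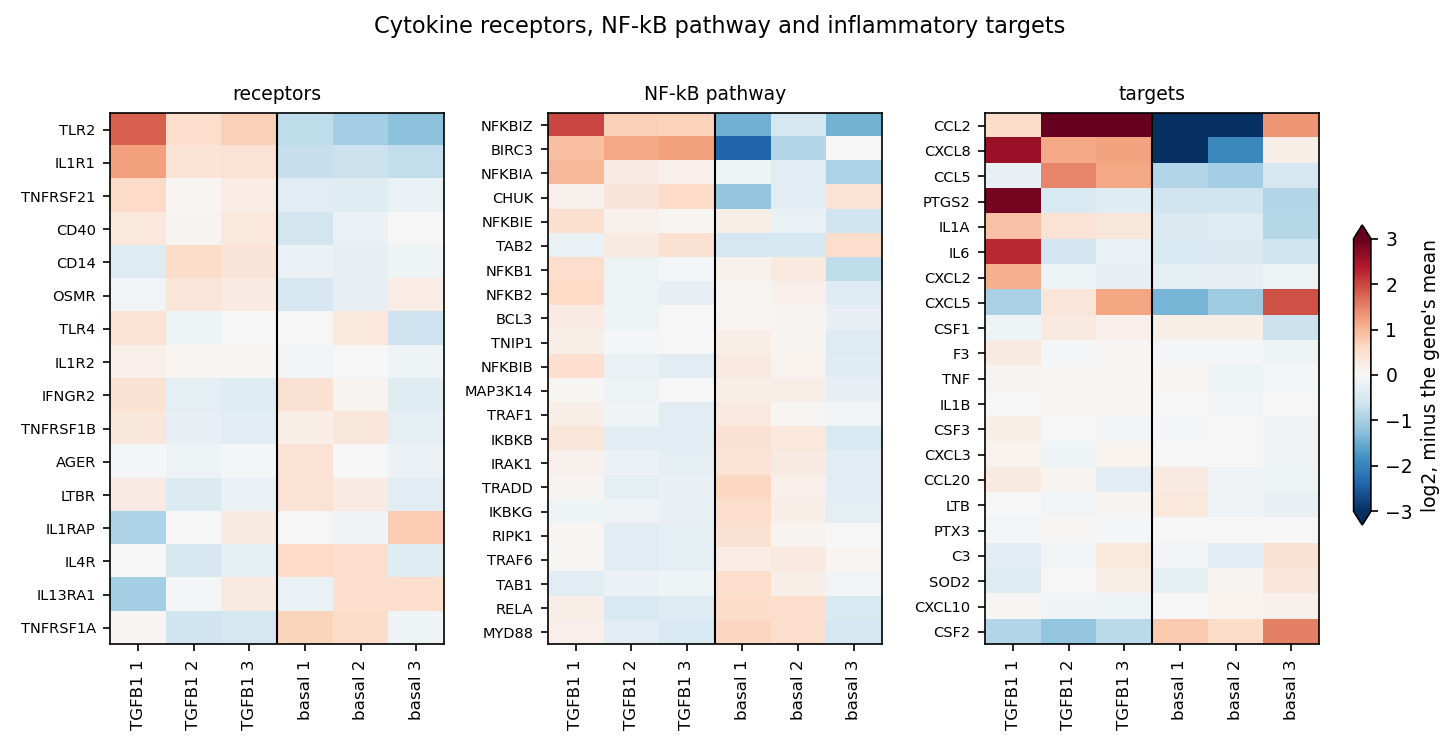
Expression of the cytokine receptors, the NF-kB pathway genes and the inflammatory targets in each array, as log2 values minus the mean of the gene over the 6 arrays, with colours ending at 3 log2 in either direction. The IL1R1 and TLR2 rows separate the 3 TGFB1 arrays on the left from the 3 basal arrays, and the CSF2 row does so in the opposite direction.

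Most defining markers of leukocytes and platelets were low, with CD14 as the exception, and the means of these lists overlapped between the groups. SELP is also a platelet protein, and ICAM1 and VCAM1 occur on fibroblasts and leukocytes. The mean of 14 leukocyte markers lay between 4.74 and 4.81 log2 in TGFB1 arrays and between 4.70 and 4.85 log2 in basal arrays. PTPRC, the pan-leukocyte antigen, lay between 3.77 and 3.93 log2 over all arrays, below the 25th percentile of the arrays at 4.52 to 4.60 log2. CD14, a receptor of monocytes and macrophages, had 6.54, 7.46 and 7.31 log2 in TGFB1 arrays 1, 2 and 3, against 6.74, 6.68 and 6.80 log2 in basal arrays 1, 2 and 3. It lay above the array medians and below the 75th percentile of 7.52 to 7.62 log2, and its part in the receptors' values was not tested. The other 13 leukocyte markers lay between 3.42 and 5.90 log2. The platelet factor PF4 lay between 3.43 and 3.68 log2. None of 14 leukocyte, 2 platelet, 6 smooth muscle, 9 fibroblast and 8 mesothelial or epithelial markers was called by limma. At an unadjusted p under 0.05 there was 1, the fibroblast marker COL1A2. Over all genes 1.72% were called and 17.4% had such an unadjusted p.

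COL1A2 had 11.19, 12.23 and 12.11 log2 in TGFB1 arrays 1, 2 and 3, against 10.76, 10.65 and 11.33 log2 in basal arrays 1, 2 and 3, lowest on the same arrays as VCAM1, and its part in the VCAM1 values was not tested. Of the other fibroblast markers COL3A1, at 10.36 to 10.86 log2, and FBLN1, at 7.73 to 9.96 log2, were bright too, whereas LUM and DCN lay between 3.13 and 4.65 log2. Means over the 9 fibroblast markers ran from 6.74 to 6.81 log2 in TGFB1 arrays and from 6.72 to 6.90 log2 in basal arrays. Of 13 endothelial markers the junction protein CLDN5 fell 8.98-fold (limma adjusted p = 0.0371, lost when any 1 array other than basal 3 was left out, with differences from -3.64 to -2.88 log2 over all 6 such fits), and no other was called, where 1.72% of all genes were. At an unadjusted p under 0.05 there were 1 higher and 5 lower, where 17.4% of all genes had one. The higher one was EMCN, an endothelial sialomucin, at 0.82 log2 (limma adjusted p = 0.112). The treated arrays lay wholly above the basal ones for EMCN and ROBO4 and wholly below them for 6 of the 13. Over all genes this held for 8.19% and 15.1%. PECAM1, CDH5 and VWF, among those below, also belong to the adhesion and transmigration list and count in both.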

How the data were processed

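Per the labels, biotin-labelled RNA made from 4 µg of total RNA was hybridised to 1 Affymetrix bovine array a sample. The authors deposited log2 expression values, and the submitters' processing notes name RMA and affy without versions. RMA removes background, equalises array distributions by quantiles and summarises probes, so it compresses differences near background. Of 24128 probe sets 112 controls were left out. The annotation gave 1 symbol for 13292, several for 86 and none for 10638, and 13263 matched the RefSeq table by gene identifier. Where a gene had several probe sets, the brightest on average stood for it. The test was that of limma 3.58.1 under R 4.3.3 (lmFit, eBayes, group as the only term, 4 residual and 2.14 prior degrees of freedom), two-sided, with Benjamini-Hochberg adjustment over all 9162 genes. No filter was applied. The number of arrays limits the precision.

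The members, the 13 gene lists (175 measured genes) and the tests were chosen with earlier results of these data known. Named were the members, all list genes called, up to 4 of each list with the smallest p and the genes most like each member. After their values were seen, JAM3, PECAM1, CD44, TNFRSF1A, CCL2, IL1B, F3, PTGS2 and 3 chromosomal neighbours were added. So were the markers VWF, KDR, CDH5, PTPRC, COL3A1, FBLN1, LUM and DCN. Alternatives were other normalizations, variance models, blocks, filters, thresholds, choices of probe set and leaving out each array. Python 3.11.15 with matplotlib 3.10.9 drew the figures.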

Additional observations from a re-analysis of the deposited data

How the results depend on the processing

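Over the alternatives the differences of SELE, SELP, VCAM1 and ICAM1 and the contrast of SELE with the other receptors kept their sign. Leaving out 1 array gave 3.02 to 3.41 log2 for SELE, 0.25 to 0.83 for SELP, 0.91 to 2.10 for VCAM1, 0.56 to 0.80 for ICAM1 and 1.98 to 2.55 for the contrast. In these fits 0 to 1538 genes and 0 to 34 list genes were called, against 158 and 7 with all arrays. A separate fit over all probe sets gave 0 to 2 calls among the 4 receptor probe sets, against 1 with all arrays, counts from which nothing is read because SELE was chosen on this difference. Limma-trend called 99 genes, and an adjusted p of 0.1 called 433 genes and 13 list genes. With the replicate number as a block SELE stood at 3.23 log2, and 0 receptor probe sets, 0 genes and 0 list genes were called. Deviations from the group means correlated at 0.67, -0.45 and 0.69 for numbers 1, 2 and 3. With 3 arrays a group these values cannot decide whether the numbers pair the samples, and the labels do not say. With the side of the first principal component as a block, chosen after earlier results, SELP stood at 0.95, VCAM1 at 0.64 and ICAM1 at 0.82 log2. That fit called 878 genes and 29 list genes. The separate fit over all probe sets with this block called 3 receptor probe sets, a count from which again nothing is read. The causes of these changes were not tested. No detection call exists, so the basal signal of SELE was not shown to be above background.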

Other observations

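Transcription factors that act on the promoters of the adhesion receptors showed no limma call among 21 measured, where 1.72% of all genes were called. Of the 21, 9 had an unadjusted p under 0.05, 4 higher and 5 lower, where 17.4% of all genes had one. The list median was -0.30 log2, beside -0.03 over all genes. FLI1, an ETS factor of endothelium, stood at -0.59 log2 (limma adjusted p = 0.0674). JUNB and ATF3, which bind AP-1 and related elements, stood at 1.39 and 0.81 log2, and NR2F2, a nuclear receptor of venous endothelium, at 0.60 log2. Of the 2 other probe sets of NR2F2 only 1 had the same sign. For these 4 genes the treated arrays did not overlap the basal ones. In the list, treated arrays lay wholly above basal ones in 4 genes and wholly below them in 4. Over all genes this held for 8.19% and 15.1%. JUNB had 10.15, 9.46 and 9.36 log2 in TGFB1 arrays 1, 2 and 3, against 8.51, 8.60 and 7.68 log2 in basal arrays 1, 2 and 3, with basal 3 the lowest as for ICAM1 and SELP. Without basal 3 there were 7 calls in this list, but that fit called 1538 of all 9162 genes.

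Genes of the docking structure that gathers ICAM1 and VCAM1 under a leukocyte, and of their shedding, showed no limma call among 14 measured. None had an unadjusted p under 0.05. Over all genes 1.72% were called and 17.4% had such an unadjusted p. CAV1, the caveolar coat protein, stood at -0.71 log2, the tetraspanins CD63 and CD151 at -0.25 and -0.44 log2, and the actin cross-linker ACTN1 at 0.31 log2. Of the 14, ACTN1 alone had treated arrays that did not overlap the basal ones. They lay above, which held for 8.19% of all genes.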
